A study of Homo sapiens with 12 samples.

Results

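The 10 genes described here are members and neighbours of the AP-1 transcription factor family that cells switch on within minutes of a signal. They are FOS, FOSB, FOSL1, FOSL2, JUN, JUNB, JUND, EGR1, IER2 and ATF3. The list was chosen from measured values, since FOS and FOSB had been seen at lower levels than in the control in all 5 knockdowns of the series, so for FOS and FOSB the difference from the control chose the list and is given as a description, with no test. The question asked of the other 8 genes was which of them followed FOS and FOSB. All 10 passed the filter on low values and stand among 12830 protein-coding genes tested. RNA-seq was carried out on cells labelled as HEK293T, a human embryonic kidney cell line, and as wild type, grown in DMEM with serum under normal conditions. The study's text names HEK293 cells for these knockdowns, and the labels are followed here. Each of 6 groups had 2 libraries, transfected with the control siRNA (siCTL) or with siRNA against the arginine methyltransferase CARM1 (siCARM1), the remodelling ATPase CHD4 (siCHD4), the histone deacetylase HDAC2 (siHDAC2), the zinc-finger protein GATAD2A (siGATAD2A) or the histone demethylase KDM1A (siKDM1A). CHD4, HDAC2 and GATAD2A are subunits of the NuRD complex, with which KDM1A has also been found, and the series asked how CARM1 and NuRD act in transcriptional activation. For CARM1 the methods give 2 siRNAs and not which of them was used, and for no group do the labels give the time of harvest or say that the 2 libraries came from separate cultures, so p-values measure the spread between these libraries, which may be technical.

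AP-1 is a dimer of a FOS-family and a JUN-family protein, or of 2 JUN-family proteins, joined through their leucine zippers, and it binds the element TGACTCA. FOS proteins cannot pair with each other and need a JUN partner. Growth factors and serum act through kinases on factors already bound at the promoters of immediate early genes, SRF with its partners at CArG boxes and CREB at cyclic AMP response elements, so transcription starts without new protein synthesis and the short-lived mRNAs soon decay. EGR1 is a zinc-finger transcription factor of the same early wave, IER2 a nuclear protein of that wave, and ATF3 a leucine-zipper factor of the ATF/CREB family that stress induces and that can pair with JUN proteins.

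Each library held 19308315 to 28648657 read pairs on genes, and the variation between libraries of a group was small (common biological coefficient of variation 3.47%). The targeted mRNA was lower in every knockdown by the edgeR test. Between 16.6% and 29.8% of the siCTL level was left for CARM1, HDAC2, GATAD2A and KDM1A, but 68.9% for CHD4 (log2 fold change −0.54 ± 0.07 (SE), adjusted p = 1.17e-07, n = 2 against 2). So by these counts siCHD4 is a group in which most of the targeted mRNA was still present. The estimate rests on 723 and 862 CHD4 read pairs in the siCTL libraries and 604 and 654 in siCHD4. Whether CHD4 shares exons with other genes, and what that does to its count, was not examined. Of the markers looked up for HEK293 cells, NEFL stood at 121 to 190 CPM (counts scaled to library size) in every library, whereas NEFM stood at no more than 0.706, INA at no more than 4.12 and PAX2 at no more than 2.16. Of the markers of other cell types, PTPRC, CD3E, CD79A, ALB, COL1A2, KRT5 and KRT14 stayed at or below 2.85 CPM, and COL1A1 alone was high, at 73.7 to 122 CPM.

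The promoters show which known response elements lie just upstream of these genes. RefSeq promoters (GRCh38.p14) were at hand for 9 of the 10 genes, and the 150 bases before the start site were searched on both strands for TGACG (the core of a cyclic AMP response element), the full element TGACGTCA (which contains that core), the AP-1 element TGACTCA, its variant TGACATCA, the CArG box bound by SRF, and TATAAA. The sequences shown are those of FOS and FOSB, of EGR1, whose levels ran closest to FOS among the list's genes outside the FOS family, and of JUN and FOSL2, each called higher than siCTL in 4 knockdowns. ATF3 was also called higher in 4 knockdowns, and its sequence is not shown. Capitals mark the matches, which in EGR1 include CGTCA, the same core on the other strand. The bases run 5′ to 3′ along the gene's own strand and end at the base before the start.
FOS (chr14:75278678-75278827, + strand): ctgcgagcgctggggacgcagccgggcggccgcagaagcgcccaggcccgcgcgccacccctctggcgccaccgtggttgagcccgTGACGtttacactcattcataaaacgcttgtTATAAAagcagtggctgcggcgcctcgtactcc
FOSB (chr19:45467846-45467995, + strand): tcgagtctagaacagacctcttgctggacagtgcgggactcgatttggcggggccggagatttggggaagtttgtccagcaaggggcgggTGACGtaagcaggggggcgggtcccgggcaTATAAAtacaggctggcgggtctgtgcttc
EGR1 (chr5:138465329-138465478, + strand): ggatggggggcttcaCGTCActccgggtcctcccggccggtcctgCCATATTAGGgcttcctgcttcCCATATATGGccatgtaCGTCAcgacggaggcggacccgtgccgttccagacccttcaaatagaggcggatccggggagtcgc
JUN (chr1:58784048-58784197, − strand): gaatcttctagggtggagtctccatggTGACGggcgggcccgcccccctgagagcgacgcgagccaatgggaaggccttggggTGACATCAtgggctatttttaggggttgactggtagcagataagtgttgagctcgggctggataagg
FOSL2 (chr2:28392708-28392857, + strand): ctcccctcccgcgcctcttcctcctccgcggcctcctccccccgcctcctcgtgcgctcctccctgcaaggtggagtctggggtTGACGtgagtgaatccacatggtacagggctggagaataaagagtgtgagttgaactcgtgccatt

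FOS and FOSB had the same layout, with TGACG starting at −64 and −60 and TATAAA at −33 and −30 from the start site. EGR1 had 2 CArG boxes, at −105 to −96 and −83 to −74, and TGACG cores on the other strand at −135 to −131 and −66 to −62. JUN had TGACG at −123 and the AP-1 variant TGACATCA at −67, and FOSL2 had TGACG at −66. Among the genes not shown, JUNB also had TGACG (at −137) and TATAAA (at −31), and ATF3 had TGACATCA at −123. TGACG was found in 8 of the 9 genes (not in ATF3), against 15.4% of all 35116 promoters of the table. A CArG box was found in 0.769% of all promoters, TATAAA in 6.71%, TGACATCA in 1.96%, TGACTCA in 2.89% and TGACGTCA in 1.4%, and neither of the last 2 was found in the 9 genes. TGACG stood before genes with lower calls (EGR1, JUNB) and with higher calls (JUN, FOSL2, JUND, IER2), and ATF3, the gene without it, had higher calls. These matches describe the letters only, and sites further upstream than 150 bases were not searched. The part of these elements in the levels of the genes was not tested.

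FOS, the founding FOS-family protein, was highest in siCTL and lowest in siGATAD2A and siCHD4. Its CPM, scaled by TMM (trimmed mean of M-values, edgeR's normalization), was 47.4 and 49.2 in the 2 siCTL libraries, 33.1 and 30.0 in siCARM1, 22.6 and 25.6 in siHDAC2, 17.6 and 18.3 in siKDM1A, 10.7 and 11.0 in siCHD4 and 9.94 and 10.1 in siGATAD2A. Every knockdown library lay under both siCTL libraries, and no 2 neighbouring groups overlapped, although the lowest, siGATAD2A and siCHD4, were not told apart by the edgeR test (log2 difference 0.11 ± 0.10, adjusted p = 0.385). The level was 1.53-fold lower in siCARM1 than in siCTL (log2 fold change −0.62 ± 0.07 (SE)) and 4.85-fold lower in siGATAD2A (−2.28 ± 0.09). In bulk RNA, fewer cells with FOS mRNA and less FOS mRNA in each cell cannot be told apart, here and for every gene that follows.

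FOSB, a close relative of FOS, showed nearly the same picture, except in siKDM1A. Its CPM was 36.7 and 39.7 in siCTL, 23.1 and 25.0 in siCARM1, 18.8 and 20.7 in siHDAC2, 9.49 and 8.36 in siKDM1A, 6.96 and 9.20 in siCHD4 and 7.72 and 8.45 in siGATAD2A. The last 3 groups overlapped one another, while siHDAC2, siCARM1 and siCTL each stood clear. FOSB in siKDM1A (log2 fold change −2.10 ± 0.10) thus stood with siCHD4 and siGATAD2A (−2.26 ± 0.11 and −2.25 ± 0.11), whereas FOS in siKDM1A (−1.43 ± 0.08) lay between the milder and the stronger groups. The lowest values rest on 166 to 228 read pairs per library for FOSB and 242 to 273 for FOS in siCHD4 and siGATAD2A.

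FOSL1 (FRA-1) and FOSL2 (FRA-2), the other FOS-family members, did not follow. They lack the strong activation domain of FOS and FOSB. FOSL2 was at 26.9 and 27.9 CPM in siCTL, 31.9 and 32.4 in siHDAC2, 46.2 and 46.0 in siGATAD2A, 49.2 and 46.4 in siCARM1, 52.2 and 47.1 in siKDM1A and 80.6 and 80.7 in siCHD4. All 10 knockdown libraries lay above both siCTL libraries. FOSL2 rose in 4 knockdowns by the edgeR quasi-likelihood test (adjusted p of 0.05 or less over all genes and a fold of at least 1.2), from 1.68-fold in siGATAD2A (log2 fold change 0.75 ± 0.07, adjusted p = 9.26e-11) to 2.91-fold in siCHD4 (1.54 ± 0.06, adjusted p = 4.39e-19). In siHDAC2 its 1.18-fold difference had an adjusted p of 0.00961 and missed the fold minimum.

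FOSL1 had the lowest mean CPM of the 10 genes in every group but siCHD4, where it rose above FOS and FOSB. It was at 4.35 and 3.57 CPM in siCTL, 5.06 and 4.87 in siHDAC2, 4.47 and 5.96 in siCARM1, 5.69 and 5.22 in siKDM1A, 6.38 and 5.83 in siGATAD2A and 23.8 and 24.3 in siCHD4. The siCHD4 libraries stood far above the rest, and siHDAC2, siCARM1 and siKDM1A overlapped. FOSL1 rose 6.03-fold in siCHD4 (log2 fold change 2.59 ± 0.14, edgeR adjusted p = 1.02e-16), 1.55-fold in siGATAD2A (0.63 ± 0.16, adjusted p = 0.00162) and 1.38-fold in siKDM1A (0.47 ± 0.17, adjusted p = 0.0227). In siCARM1 (0.38 ± 0.17, adjusted p = 0.0575) and siHDAC2 (0.33 ± 0.17, adjusted p = 0.123) the test was not passed. With 83 and 85 read pairs in the siCTL libraries, the smaller calls were fragile. Without siCTL replicate 2 the adjusted p was 0.053 in siGATAD2A and 0.242 in siKDM1A, without siKDM1A replicate 1 it was 0.12, and with counts taken without regard to strand it was 0.0513 in siKDM1A. Opposite-strand reads came to 7.91% to 31.6% of the FOSL1 count, more than for any other of the 10 genes.

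**Figure D1:**
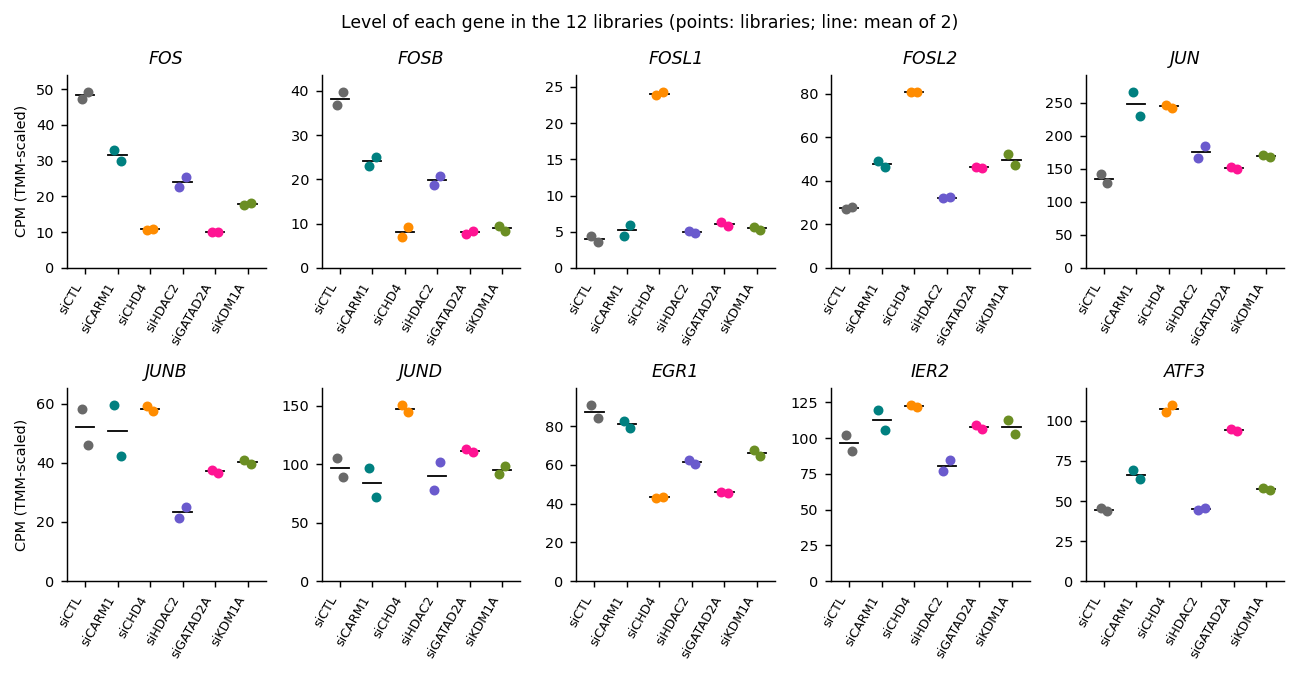
Level of each of the 10 genes (TMM-scaled CPM, linear axis from 0) in the 6 siRNA groups. Points are libraries and the black line is the mean of the 2 libraries of a group. FOS falls from 48.3 CPM in siCTL to 10.0 in siGATAD2A, FOSL1 stands at 24.1 in siCHD4 and under 6.5 elsewhere, and the paired points of JUNB and JUND lie far apart in siCTL and siCARM1.

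JUN, the chief partner of FOS proteins, rose or held its level. Its CPM was 142 and 128 in siCTL, 153 and 150 in siGATAD2A, 170 and 167 in siKDM1A, 166 and 184 in siHDAC2, 247 and 242 in siCHD4 and 266 and 230 in siCARM1. Every knockdown library lay above both siCTL libraries, and siCHD4 and siCARM1 overlapped at the top. JUN was 1.84-fold higher in siCARM1 (log2 fold change 0.88 ± 0.06, edgeR adjusted p = 8.21e-14), 1.79-fold in siCHD4 (0.84 ± 0.06, adjusted p = 4.51e-14), 1.31-fold in siHDAC2 (0.39 ± 0.06, adjusted p = 3.86e-06) and 1.25-fold in siKDM1A (0.33 ± 0.06, adjusted p = 3.02e-05). The 1.12-fold difference in siGATAD2A (adjusted p = 0.0176) missed the fold minimum. JUN was the only one of the 8 tested genes called higher in siHDAC2, and the only one for which siCARM1 had the highest mean. Without siCTL replicate 2 the siKDM1A difference, at 0.25 on the log2 scale, fell under the fold minimum.

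JUNB, a JUN-family protein with weaker activating power than JUN, fell in 3 knockdowns. Its CPM was 58.2 and 46.2 in siCTL, 59.4 and 42.3 in siCARM1, 59.2 and 57.5 in siCHD4, 41.1 and 39.5 in siKDM1A, 37.5 and 36.6 in siGATAD2A and 21.5 and 25.0 in siHDAC2. The siHDAC2, siGATAD2A and siKDM1A libraries lay under both siCTL libraries, and siCARM1, siCTL and siCHD4 overlapped. The drop was 2.21-fold in siHDAC2 (log2 fold change −1.15 ± 0.11, edgeR adjusted p = 1.07e-09), 1.41-fold in siGATAD2A (−0.49 ± 0.10, adjusted p = 0.000154) and 1.29-fold in siKDM1A (−0.37 ± 0.10, adjusted p = 0.00398). In siCARM1 (−0.03 ± 0.10, adjusted p = 0.857) and siCHD4 (0.15 ± 0.10, adjusted p = 0.185) the test was not passed. The siKDM1A call was lost with DESeq2 (adjusted p = 0.0834) and without siCTL replicate 1 (log2 fold change −0.20, adjusted p = 0.196). Leaving out 1 library also made calls in the other 2 knockdowns, lower in siCARM1 without its replicate 1 (−0.30, adjusted p = 0.00717) and higher in siCHD4 without siCTL replicate 1 (0.32, adjusted p = 0.0167).

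JUND, the JUN-family member that resting cells already make, changed in 1 knockdown. Its CPM was 105 and 88.6 in siCTL, 96.3 and 72.3 in siCARM1, 77.7 and 102 in siHDAC2, 91.9 and 98.7 in siKDM1A, 113 and 111 in siGATAD2A and 150 and 144 in siCHD4. The first 4 of these groups overlapped. JUND rose 1.5-fold in siCHD4 (log2 fold change 0.59 ± 0.09, edgeR adjusted p = 1.34e-06), and the other 4 differences lay between −0.19 (siCARM1, adjusted p = 0.0876) and 0.20 (siGATAD2A, adjusted p = 0.0671). JUND was called lower in siCARM1 without siCTL replicate 2 (−0.32) or without siCARM1 replicate 1 (−0.42), lower in siHDAC2 without siHDAC2 replicate 2 (−0.32), and higher in siGATAD2A without siCTL replicate 1 (0.33), so for JUND single libraries decided those 3 knockdowns.

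EGR1 was the one gene outside the FOS family that ran with FOS and FOSB. Its CPM was 90.7 and 84.3 in siCTL, 82.8 and 79.3 in siCARM1, 67.9 and 64.6 in siKDM1A, 62.3 and 60.6 in siHDAC2, 46.3 and 45.8 in siGATAD2A and 43.0 and 43.6 in siCHD4. As for FOS, siCTL stood highest with siCARM1 next, and the libraries of neighbouring groups did not overlap. The edgeR test did not tell siCHD4 from siGATAD2A (adjusted p = 0.145) or siHDAC2 from siKDM1A (adjusted p = 0.158). EGR1 fell 2.05-fold in siCHD4 (log2 fold change −1.03 ± 0.06, edgeR adjusted p = 3.97e-16), 1.91-fold in siGATAD2A (−0.93 ± 0.06, adjusted p = 1.26e-14), 1.42-fold in siHDAC2 (−0.51 ± 0.06, adjusted p = 1.58e-08) and 1.32-fold in siKDM1A (−0.40 ± 0.05, adjusted p = 5.68e-07). In siCARM1 the difference was −0.11 ± 0.05 and did not pass (adjusted p = 0.0825). These 4 calls held under every alternative run, and siCARM1 gained none.

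IER2 moved least. Its CPM was 103 and 90.8 in siCTL, 77.0 and 84.6 in siHDAC2, 109 and 107 in siGATAD2A, 113 and 103 in siKDM1A, 120 and 106 in siCARM1 and 123 and 122 in siCHD4. The siHDAC2 libraries lay under both siCTL libraries and those of the other 4 knockdowns above both, although the span was narrow. Only the 1.25-fold rise in siCHD4 was called (log2 fold change 0.32 ± 0.06, edgeR adjusted p = 3.00e-05), and without siCTL replicate 2 it fell to 0.23, under the fold minimum. In siHDAC2 (−0.25 ± 0.06, adjusted p = 0.00233) and siCARM1 (0.22 ± 0.06, adjusted p = 0.00322) the difference stayed just under the fold minimum of 0.263 on the log2 scale. The siHDAC2 difference was called without siCTL replicate 2 (−0.34) or siHDAC2 replicate 2 (−0.33) and with edgeR's own filter over genes of every biotype (−0.28), and the siCARM1 difference without siCTL replicate 1 or siCARM1 replicate 2 (0.31 in each).

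ATF3 rose in 4 knockdowns. Its CPM was 45.4 and 43.6 in siCTL, 44.4 and 45.9 in siHDAC2, 58.3 and 56.9 in siKDM1A, 69.1 and 64.0 in siCARM1, 95.0 and 93.5 in siGATAD2A and 106 and 110 in siCHD4. Only siHDAC2 overlapped siCTL, and the other groups stood apart in that order. The rise was 2.39-fold in siCHD4 (log2 fold change 1.26 ± 0.06, edgeR adjusted p = 2.05e-18), 2.11-fold in siGATAD2A (1.08 ± 0.06, adjusted p = 3.79e-16), 1.49-fold in siCARM1 (0.58 ± 0.06, adjusted p = 1.32e-09) and 1.30-fold in siKDM1A (0.37 ± 0.06, adjusted p = 5.82e-06). In siHDAC2 it was 0.03 ± 0.06 (adjusted p = 0.776). The groups with the most ATF3 mRNA, siCHD4 and siGATAD2A, were those with the least FOS and EGR1 mRNA.

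**Figure D2:**
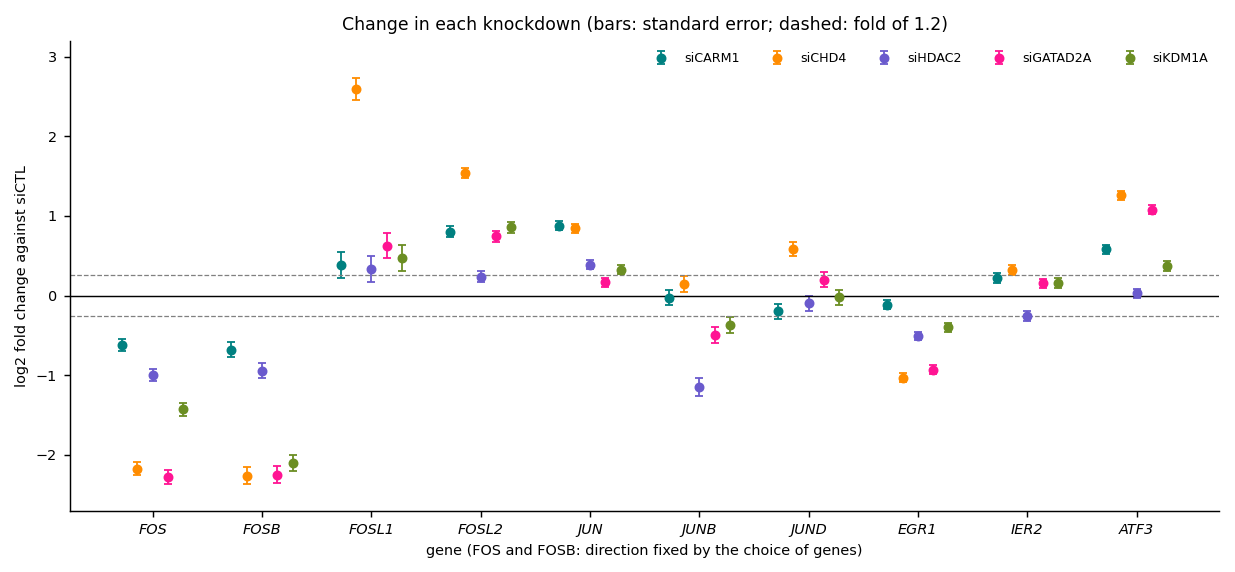
Log2 fold change against siCTL of each gene in the 5 knockdowns, with standard errors from the edgeR fit. Dashed lines mark a fold of 1.2. FOS and FOSB lie below 0 throughout, which chose the list, EGR1 reaches −1.03, and FOSL1, FOSL2, JUN and ATF3 lie above 0 in all 5 knockdowns.

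Counted over the 8 genes other than FOS and FOSB, the balance leaned to higher levels in 4 of 5 knockdowns. In siCARM1 edgeR called none lower, against 14.5% of all tested genes, and 3 higher (FOSL2, JUN and ATF3), against 14.9%. JUND and EGR1 lay on the lower side at an unadjusted edgeR p of 0.0457 and 0.0426 there, and DESeq2 called none lower. In siCHD4 EGR1 was called lower (24.9% of all genes) and 6 genes were called higher (24.0%), that is all but JUNB and EGR1. In siHDAC2 JUNB and EGR1 were called lower (9.00%) and JUN higher (10.6%). In siGATAD2A JUNB and EGR1 were called lower (18.2%) and FOSL1, FOSL2 and ATF3 higher (15.7%). In siKDM1A JUNB and EGR1 were called lower (11.5%) and FOSL1, FOSL2, JUN and ATF3 higher (14.2%). The median log2 fold change of the 8 genes was 0.30, 0.72, −0.04, 0.18 and 0.24 in siCARM1, siCHD4, siHDAC2, siGATAD2A and siKDM1A, beside medians over all tested genes within 0.006 of 0. No gene of the 8 was called lower in all 5 knockdowns, EGR1 came nearest with 4, and none was called higher in all 5. Without siCTL replicate 2 the counts were 2 lower and 2 higher in both siGATAD2A and siKDM1A. All 5 comparisons share the same 2 siCTL libraries, so they are not independent of one another.

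The 10 comparisons between knockdowns leave out the siCTL mean, and there all 10 genes could be tested, FOS and FOSB included. The siCTL libraries still entered the scaling and the spread shared by all groups. Of 100 differences 67 were called, beside 14.3% to 48.8% of all tested genes in the single pairs. With only the compared groups in the fit, 67 were called as well. Each knockdown enters 4 of the 10 pairs, so the pairs are not independent of one another. FOS differed in 9 of the 10 pairs, EGR1, JUNB and ATF3 in 8, FOSB and FOSL2 in 7, JUN and JUND in 6, and FOSL1 and IER2 in 4. The 4 calls of FOSL1 were its 4 pairs with siCHD4.

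siCHD4 and siHDAC2 differed in all 10 genes, against 48.8% of all tested genes. FOS (log2 difference −1.18 ± 0.09, edgeR adjusted p = 1.17e-12), FOSB (−1.31 ± 0.11, adjusted p = 1.20e-11) and EGR1 (−0.52 ± 0.06, adjusted p = 3.10e-09) were lower in siCHD4, and the other 7 were higher there, from 0.46 for JUN to 2.26 for FOSL1. Against siKDM1A, siCHD4 differed in 8 genes (47.7% of all genes), with FOS (−0.74) and EGR1 (−0.63) lower, 6 genes higher, and FOSB (−0.16 ± 0.13, adjusted p = 0.282) and IER2 not called. Against siCARM1, siCHD4 differed in 7 genes (47.7%), with FOS, FOSB and EGR1 higher in siCARM1 by 1.56, 1.58 and 0.92 and FOSL1, FOSL2, JUND and ATF3 higher in siCHD4.

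Between siCHD4 and siGATAD2A 5 of the 10 genes were called, against 44.8% of all tested genes. FOS (0.11 ± 0.10, adjusted p = 0.385), FOSB (−0.01 ± 0.13, adjusted p = 0.959) and EGR1 (−0.10 ± 0.06, adjusted p = 0.145) did not pass the edgeR test, nor IER2 and ATF3 the fold minimum (0.17 and 0.18). FOSL1 was higher in siCHD4 by 1.96 ± 0.12, FOSL2 by 0.79 ± 0.06, JUN by 0.68 ± 0.06, JUNB by 0.64 ± 0.10 and JUND by 0.39 ± 0.09. The JUND call was lost with DESeq2 (adjusted p = 0.0505).

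siCARM1, the mildest knockdown for FOS, FOSB and EGR1, had more of all 3 than each of the other 4. Against siHDAC2 it differed in 8 genes, all higher in siCARM1 (19.3% of all genes), against siGATAD2A in 7 (33.8%) and against siKDM1A in 5 (21.0%), the 5 being FOS, FOSB, JUN, JUNB and EGR1. Of these the FOSB difference from siHDAC2, 0.27 ± 0.10 (edgeR adjusted p = 0.0292), was barely past the fold minimum and was lost with DESeq2 (adjusted p = 0.0719), with counts without regard to strand, and without siCARM1 replicate 2 or siHDAC2 replicate 1. The JUNB differences from siGATAD2A and siKDM1A were lost without siCARM1 replicate 1 (0.19 and 0.07), and the one from siKDM1A also without siKDM1A replicate 2 (adjusted p = 0.0577) and with DESeq2. The JUND difference from siGATAD2A was lost with DESeq2 (adjusted p = 0.0521) and without siCARM1 replicate 2 (−0.21). The EGR1 difference from siKDM1A, 0.29 ± 0.05, fell just under the fold minimum without siCARM1 replicate 1 or siKDM1A replicate 2.

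Among the remaining pairs, siHDAC2 and siGATAD2A differed in 8 genes (29.5% of all genes). FOS, FOSB and EGR1 were higher in siHDAC2 by 1.28, 1.31 and 0.42, and FOSL2, JUNB, JUND, IER2 and ATF3 were higher in siGATAD2A, the largest being ATF3 (siHDAC2 minus siGATAD2A −1.05 ± 0.06, edgeR adjusted p = 6.13e-16). The JUND call there was lost without siHDAC2 replicate 1 and with DESeq2 (adjusted p = 0.157). siHDAC2 and siKDM1A differed in 6 genes (14.3%), with FOSB higher in siHDAC2 by 1.16 ± 0.11 (adjusted p = 1.54e-09) and JUNB higher in siKDM1A (siHDAC2 minus siKDM1A −0.78 ± 0.11, adjusted p = 2.26e-06). siGATAD2A and siKDM1A differed in 3 (32.1%), FOS and EGR1 being lower in siGATAD2A (−0.85 and −0.53) and ATF3 higher (0.70). FOSB, with a difference of −0.15 ± 0.13 (adjusted p = 0.337), was not called.

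**Figure D3:**
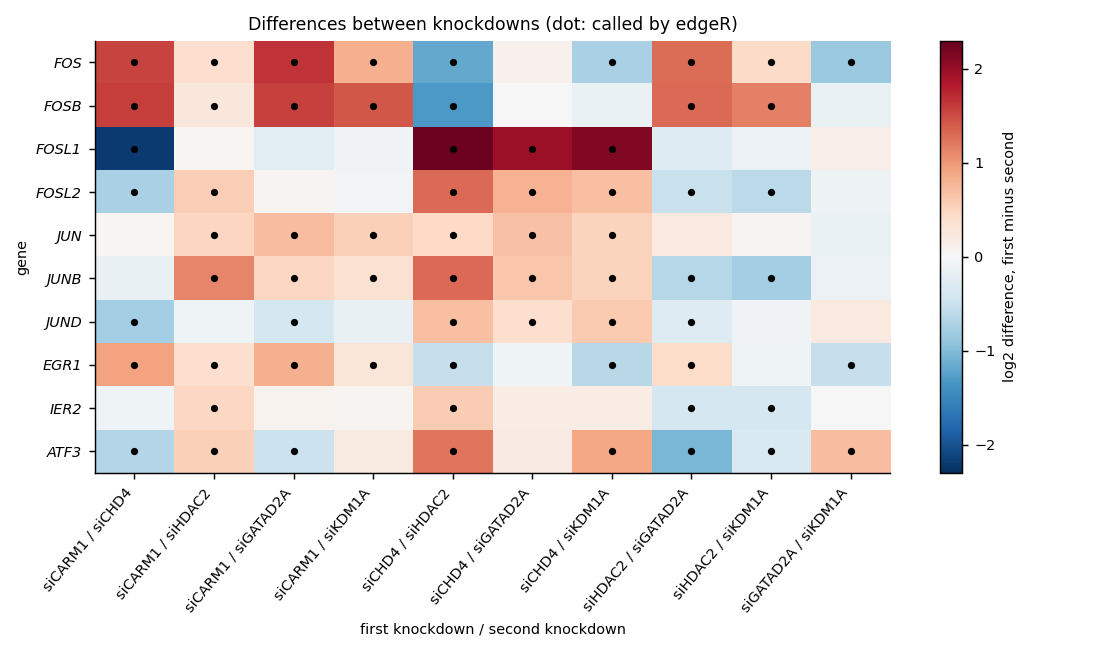
Log2 difference between each pair of knockdowns (first minus second) for the 10 genes, with a black dot where the edgeR test and the fold minimum were passed. FOS, FOSB and EGR1 show the same colours in most columns, FOSL1 stands out in the 4 pairs with siCHD4, and the siCHD4 column against siHDAC2 has a dot for all 10 genes.

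Over the 12 libraries, FOS, FOSB and EGR1 ran together and against FOSL1, FOSL2 and ATF3, as a description of 6 group levels rather than of 12 independent samples. Pearson's r of log2 CPM was 0.953 between FOS and FOSB, 0.950 between FOS and EGR1 and 0.849 between FOSB and EGR1. The siCTL libraries are among the 12, so the r between FOS and FOSB was partly set by choosing both as lower than siCTL. Among the others, r was 0.863 between FOSL2 and ATF3, 0.856 between FOSL1 and FOSL2 and 0.714 between FOSL2 and JUN. Between these sets it was negative, at −0.826 between FOS and ATF3 and −0.754 between FOSB and FOSL2. JUND also ran against FOS, FOSB and EGR1 (−0.616, −0.579 and −0.707) and with FOSL1 and ATF3 (0.782 and 0.719). JUN and JUNB were close to neither FOS (−0.224 and 0.056) nor EGR1 (−0.204 and 0.099). JUNB ran with IER2 (0.823). Of all tested genes outside the list, those most like FOS were SAMD11 (r = 0.979), NRN1 (0.966) and SORL1 (0.962), and those most like EGR1 were PTGES (0.977), DTX3L (0.972) and SFXN3 (0.962). FOSB was most like GSTM4 (0.964), ITPR1 (0.954) and DGCR6L (0.951), and JUN most like STAT5B (0.955), TRAF3IP1 (0.948) and MYC (0.946), itself an immediate early gene.

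The other immediate early genes had more higher than lower calls in 4 knockdowns and more lower calls in siHDAC2. Of 35 listed genes 31 were tested. In siCHD4 edgeR called none lower and 20 higher, with a median log2 fold change of 0.86 (2 were lower at an unadjusted p under 0.05, and DESeq2 called none). Named after their values were seen, DUSP5, a phosphatase that acts on ERK, rose by 2.85 ± 0.08 (adjusted p = 3.64e-23), and the orphan nuclear receptors NR4A1 and NR4A3 by 2.22 ± 0.07 and 2.19 ± 0.23. In siHDAC2 the list went the other way, with 10 called lower and 3 higher and a median of −0.26. There CCN2, a secreted matricellular protein, had a log2 fold change of −0.95 ± 0.05, NR4A1 −0.87 ± 0.08 and DUSP5 −0.68 ± 0.11. siCARM1 had 1 lower and 15 higher, siGATAD2A 4 and 14, and siKDM1A 2 and 9. In the order siCARM1, siCHD4, siHDAC2, siGATAD2A and siKDM1A, higher calls made up 48.4%, 64.5%, 9.68%, 45.2% and 29.0%. Over all tested genes they made up 14.9%, 24.0%, 10.6%, 15.7% and 14.2%. Lower calls made up 3.23%, 0%, 32.3%, 12.9% and 6.45%, against 14.5%, 24.9%, 9.00%, 18.2% and 11.5% of all tested genes. TRIB1, a pseudokinase, was the one listed gene called in the same direction in all 5 knockdowns, higher by 0.50 in siHDAC2 to 1.14 in siCARM1. For every list here the share of all tested genes called lower or higher in that knockdown, given above, is the measure to read it against.

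Leucine-zipper factors that can pair with or compete against FOS and JUN proteins were more often higher than lower. Of 20 listed, 18 were tested, and 13 were called higher and none lower in siCHD4 (median log2 fold change 0.75; 1 was lower at an unadjusted p under 0.05 by edgeR, and DESeq2 called none). The counts of lower and higher calls were 2 and 5 in siCARM1, 2 and 3 in siHDAC2, 3 and 10 in siGATAD2A and none and 7 in siKDM1A. In siKDM1A no gene was lower at an unadjusted p under 0.05 by edgeR or by DESeq2's call. In the order siCARM1, siCHD4, siHDAC2, siGATAD2A and siKDM1A, higher calls made up 27.8%, 72.2%, 16.7%, 55.6% and 38.9%. Over all tested genes they made up 14.9%, 24.0%, 10.6%, 15.7% and 14.2%. Lower calls made up 11.1%, 0%, 11.1%, 16.7% and 0%, against 14.5%, 24.9%, 9.00%, 18.2% and 11.5% of all tested genes. CREB5, a factor of the ATF2 family, was called higher in all 5 knockdowns, by 0.62 in siHDAC2 to 1.32 in siCHD4, and so was BACH2, a repressor that pairs with small MAF proteins, by 0.42 in siHDAC2 to 1.0 in siGATAD2A. ATF4 (named after its values were seen) is the main factor of the integrated stress response and an activator of ATF3. It rose by 0.99 ± 0.04 in siGATAD2A and 0.96 ± 0.04 in siCHD4, the groups with the most ATF3 mRNA. ATF4 was also called higher in siCARM1, by 0.31 ± 0.04. In siHDAC2, where ATF3 was not called, the ATF4 difference of 0.26 ± 0.04 (edgeR adjusted p = 1.13e-05) just missed the fold minimum. The ATF4 value in siKDM1A is not given here. The part of ATF4 in the ATF3 levels was not tested.

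Of 25 listed kinases and factors that act upstream, 24 were tested. The counts of lower and higher calls were 2 and 2 in siCARM1, 5 and 4 in siCHD4, 2 and 1 in siHDAC2, 2 and 2 in siGATAD2A and 2 and 1 in siKDM1A, with medians from −0.05 to 0.002. These are 8.33% to 20.8% lower and 4.17% to 16.7% higher, against 9.00% to 24.9% and 10.6% to 24.0% of all tested genes. ELK4, a partner of SRF at CArG boxes, was called higher in all 5, by 0.35 in siGATAD2A to 0.54 in siCHD4. SRF itself (named after its values were seen) was higher in siCHD4 (0.39 ± 0.05, adjusted p = 4.92e-08) and lower in siHDAC2 (−0.35 ± 0.05, adjusted p = 3.63e-06).

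Genes described as AP-1 targets were mostly higher in siCHD4 and siKDM1A and split in siGATAD2A. Of 28 listed, 18 were tested. A gene was tested if its mean passed the filter on low values in any group. A gene nearly silent in siCTL could thus enter through a knockdown that raised it. This can add to the higher calls and medians, here and in the other lists, and how much it did was not examined. In siCHD4 14 were called higher and 2 lower, with a median log2 fold change of 1.09, and in siKDM1A 10 and 1, with a median of 0.72. In siGATAD2A 4 were called higher and 6 lower, with a median of −0.21. The remaining counts of higher and lower calls were 8 and 2 in siCARM1 (median 0.45) and 3 and 5 in siHDAC2 (median −0.12). In the order siCARM1, siCHD4, siHDAC2, siGATAD2A and siKDM1A, higher calls made up 44.4%, 77.8%, 16.7%, 22.2% and 55.6%. Over all tested genes they made up 14.9%, 24.0%, 10.6%, 15.7% and 14.2%. Lower calls made up 11.1%, 11.1%, 27.8%, 33.3% and 5.56%, against 14.5%, 24.9%, 9.00%, 18.2% and 11.5% of all tested genes. Named after their values were seen, HMOX1, which degrades heme, had a log2 fold change of 1.95 ± 0.06 in siCHD4 and −1.08 ± 0.07 in siGATAD2A (edgeR adjusted p = 1.60e-22 and 1.44e-13), and CD44, a hyaluronan receptor, had 1.37 ± 0.06 and −1.04 ± 0.07 (adjusted p = 1.01e-18 and 1.96e-13).

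**Figure D4:**
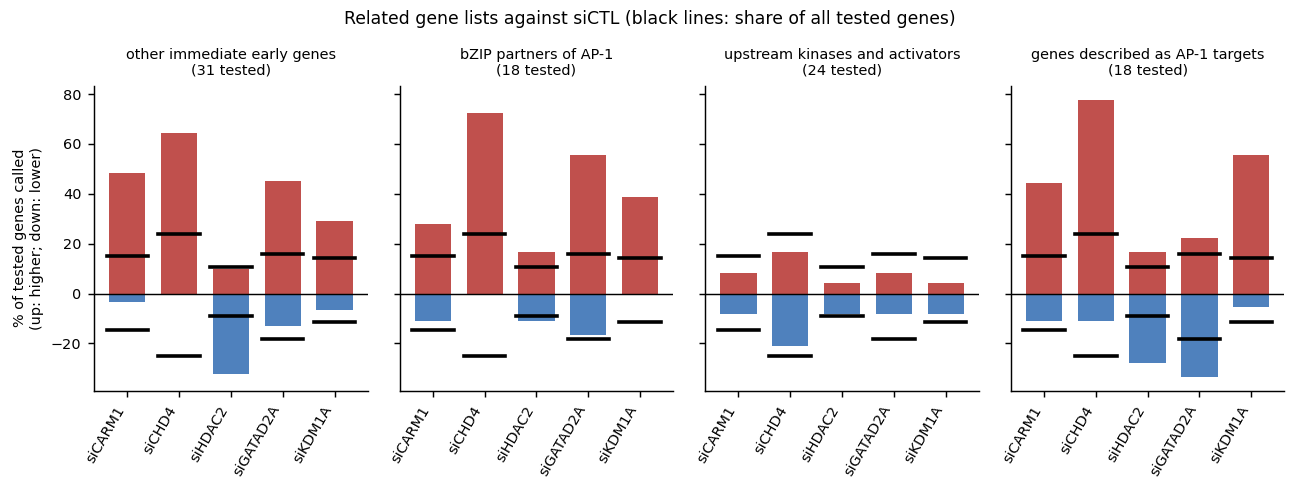
Share of the tested genes of 4 related lists called higher (upward bars) or lower (downward bars) than siCTL in each knockdown, in percent. Black lines mark the share of all 12830 tested genes. In siCHD4, 64.5% of the other immediate early genes and 77.8% of the AP-1 targets are called higher, against 24.0% of all genes, and in siHDAC2 32.3% of the other immediate early genes are called lower, against 9.00%.

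Compared per length, JUND, JUN, IER2, JUNB and EGR1 were the abundant mRNAs and FOSL1 the rarest. In siCTL the mean level was 50.2 ± 6.1 FPKM (SD, n = 2) for JUND, 37.2 ± 2.7 for JUN, 31.4 ± 2.7 for IER2, 28.5 ± 4.6 for JUNB, 27.9 ± 1.5 for EGR1, 15.2 ± 0.41 for FOS, 11.1 ± 0.32 for ATF3, 6.89 ± 0.38 for FOSB, 3.82 ± 0.10 for FOSL2 and 2.10 ± 0.29 for FOSL1. The order within the FOS family differed between groups. In siCHD4 FOSL1 stood at 12.8 ± 0.17 FPKM and FOSL2 at 11.3 ± 0.01, above FOS at 3.41 ± 0.07 and FOSB at 1.45 ± 0.29, whereas in siCTL FOS had been the highest of the 4. In siGATAD2A and siKDM1A FOSL2 was the highest of the 4, at 6.44 ± 0.02 and 6.93 ± 0.51, with FOS at 3.14 ± 0.03 and 5.64 ± 0.15. The JUN-family genes JUN, JUNB and JUND each stayed above all 4 FOS-family genes in every group.

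The 10 genes have few exons. JUN (chr1:59242517-59249720, − strand, in GENCODE 44 mapped to GRCh37), JUNB (chr19:12902300-12904129, + strand) and JUND (chr19:18390504-18392432, − strand) each have 1 exon in the canonical transcript, as do 2.71% of tested genes. FOS (chr14:75745529-75748933, + strand), FOSB (chr19:45971253-45978437, + strand), FOSL1 (chr11:65659520-65668044, − strand), FOSL2 (chr2:28615315-28640184, + strand) and ATF3 (chr1:212738676-212794119, + strand) have 4, and EGR1 (chr5:137801168-137804992, + strand) and IER2 (chr19:13261225-13265725, + strand) have 2, beside a median of 9. FOSB, JUNB, JUND and IER2 lie on chromosome 19, which holds 7.65% of tested genes. The AUUUA element, a mark of short-lived mRNAs when in the 3′ UTR, was found there in 9 of 10 genes, from 9 copies in FOSL2 and 5 in FOS to 1 in FOSL1, JUND and EGR1 and none in IER2, beside a median of 2 and 72.7% of tested genes with at least 1. Its number was 5 in FOS and 3 in FOSB, beside 3 in JUN, 3 in ATF3 and 9 in FOSL2. The part of mRNA decay in the levels of these genes was not tested.

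JUNB, JUND and IER2 are rich in GC and differed between replicates in several groups. The canonical mRNA is 69.9% GC in JUND, 64.9% in JUNB and 63.0% in IER2, against a median of 48.8% over tested genes. In siCARM1, replicate 1 exceeded replicate 2 by 0.48 for JUNB, 0.41 for JUND and 0.18 for IER2 on the log2 scale, and in siHDAC2 it fell short (−0.21, −0.38 and −0.14). Over the tenth of all genes richest in GC the median difference was 0.12 in siCARM1 and −0.11 in siHDAC2, in the same directions. In siCTL, where JUNB, JUND and IER2 differed by 0.33, 0.25 and 0.17, that median was −0.03, and in siKDM1A, where they differed by 0.06, −0.10 and 0.13, it was 0.07, so in these groups the 3 genes did not all follow it. After a correction for GC content, chosen after the data were seen, FOSL1 (0.45, edgeR adjusted p = 0.0223) and IER2 (0.34, adjusted p = 6.05e-08) were called higher in siCARM1 and JUND (0.36, adjusted p = 3.28e-06) higher in siGATAD2A, and no call of the 10 genes was lost. The part of GC content in the remaining spread was not tested. The strand also mattered for counting. Of the exonic bases of JUNB 14.2% lie opposite HOOK2, and 52.2% of those of IER2 lie opposite 2 non-coding genes. Counts without regard to strand were 59.6% to 67.9% of the stranded count for JUNB and 25.2% to 29.9% for IER2, so the stranded counts were used for every value here.

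**Figure D5:**
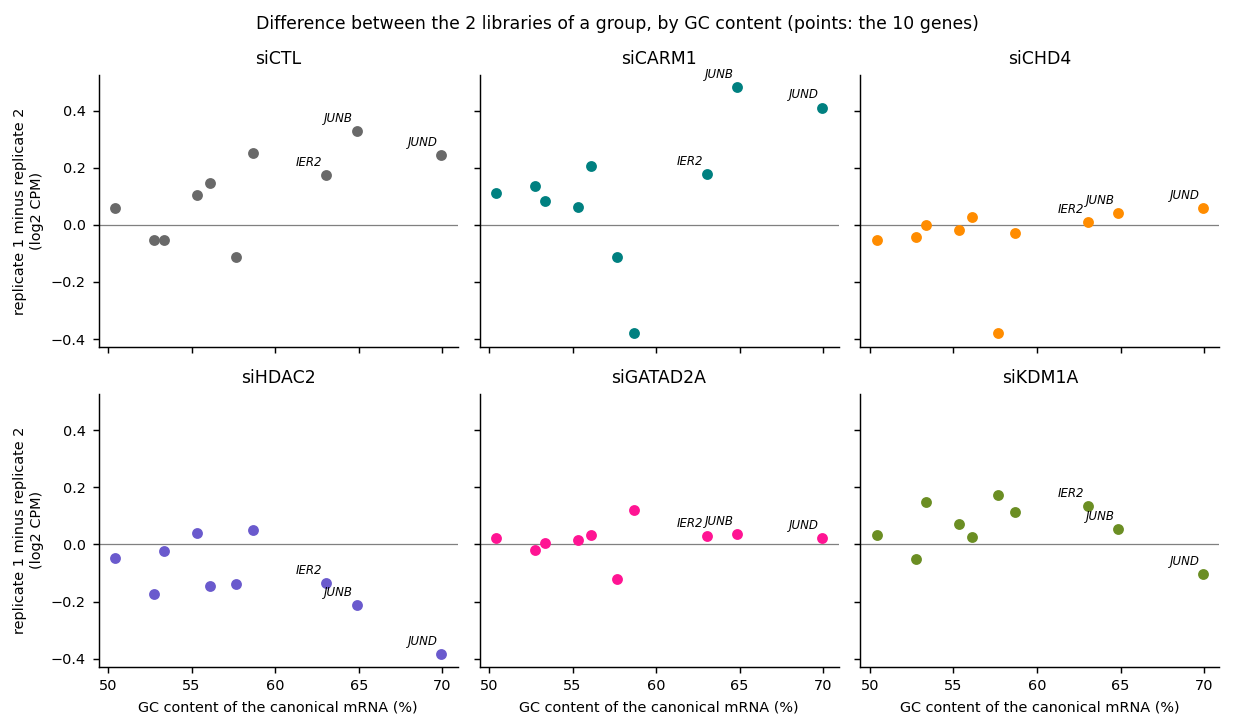
Difference between the 2 libraries of each group (replicate 1 minus replicate 2, log2 CPM) for the 10 genes against the GC content of their canonical mRNA in percent. JUNB and JUND stand at 0.48 and 0.41 in siCARM1 and at −0.21 and −0.38 in siHDAC2, while in siCHD4 and siGATAD2A both lie within 0.06 of 0.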

How the data were processed

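RNA was sequenced from 12 libraries in 6 siRNA groups of 2, with a directional kit and paired ends, at either of 2 companies (which library went where is not given). For each library the authors deposited unnormalized gene counts by Ensembl identifier, each count being a read pair, in 3 columns (no strand, forward, reverse). The submitters' processing notes name CASAVA 1.4, STAR 2.7.10 and hg19, with no role, whereas the methods name TopHat, HOMER and DESeq2. The reverse-strand column was used, since the forward-strand counts on genes came to only 7.93% to 8.40% of the reverse-strand counts. Of 60660 gene rows, 58662 matched GENCODE 44 mapped to GRCh37 by identifier, and 1954 unmatched and 44 second Y-chromosome copies were left out. Summary rows on no gene or several genes stayed out of library sizes. They held, among the fragments of a library, 17.2% to 21.2% on no feature, 5.50% to 6.22% ambiguous, 5.44% to 10.6% with several locations and 2.66% to 3.42% unmapped. Library columns of no known sample numbered 0.

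Coding genes with a mean over 0.5 FPKM in any of the 6 groups were kept (12830). They were tested with edgeR 4.0.16 (R 4.3.3, limma 3.58.1) by the quasi-likelihood test on TMM-normalized counts with 6 group means over all 12 libraries. A call needed an adjusted p (Benjamini-Hochberg, over all tested genes) no higher than 0.05 and a fold of at least 1.2. The standard error is the log2 fold change divided by the root of F. With 2 libraries a group, an exact permutation test cannot go below p = 0.333. The test was checked on simulated counts. DESeq2 1.42.0 and other scalings, filters, strands, sample sets and a replicate block were alternatives. Replicates of a group differed by more than counting noise (chi-square per degree of freedom 1.70 to 3.75), so each library was counted as 1 replicate. Same-numbered replicates of siCTL and the knockdowns did not deviate together (r from −0.054 to 0.071), r between knockdowns ran from −0.185 to 0.172, and the labels do not pair them.

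The named genes are the 10 members, genes of the lists called in the same direction in all 5 knockdowns, the 3 genes most like FOS, FOSB, JUN and EGR1 by Pearson's r of log2 CPM, and the targeted genes. Other names are said to be chosen after their values were seen. The members and the lists were chosen with earlier results of these data known. Promoter sequences are RefSeq's (GRCh38.p14). Gene positions are not in the deposited counts.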

Additional observations from a re-analysis of the deposited data

How the results depend on the processing

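FOS and FOSB kept their direction against siCTL under every alternative, and no called difference of the 10 genes changed sign. The scaling by DESeq2's size factors moved the median of all genes by less than 0.005 (log2). The replicate block, which did not pair the samples by the check, left all calls of the 10 genes as they were, with 3 members called higher in siCARM1 and 67 of 100 differences between knockdowns. A crossed block, added after seeing the data for siCARM1 with siHDAC2 and siHDAC2 with siKDM1A (correlations of deviations −0.185 and −0.102), also left 67. The highest correlation was 0.172, for siCARM1 with siKDM1A. Without a fold minimum, siCARM1 had 2962 genes lower and 3030 higher, siHDAC2 2256 and 2283, siGATAD2A 3272 higher and siKDM1A 2618 and 2814, while the members called higher numbered 2 in siHDAC2 and 5 in siGATAD2A, since fewer conditions had to be met. Members higher in siCARM1 numbered 5 without regard to strand and 5 with the correction for GC content, chosen after seeing the data (FOSL1 and IER2 were added). Members lower in siKDM1A numbered 1 with DESeq2, which lost JUNB. The cause of these was not tested.

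Leaving out each library in turn gave 0 to 2 members lower and 3 to 5 higher in siCARM1, 1 lower and 5 to 7 higher in siCHD4, 2 to 4 lower and 1 higher in siHDAC2, 2 lower and 2 to 4 higher in siGATAD2A, 1 to 2 lower and 2 to 4 higher in siKDM1A, and 65 to 68 differences between knockdowns. With 1 library left in a group, that library is assumed to vary like the others. The lowest FOSL1 counts, 83 and 85 read pairs in siCTL, limit what can be said of its smaller differences. The order of levels was the same from CPM on the total, except that the siCHD4 libraries of IER2 then overlapped those of siCARM1, and the libraries of 3 rather than 4 knockdowns lay above both siCTL libraries for IER2.

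Sign changes were seen in 36 values of 20 differences, all called in neither fit. With the correction for GC content the value was 0.11 for JUNB in siCARM1 against siCTL, 0.067 for JUND and −0.0044 for ATF3 in siHDAC2 against siCTL, 0.11 for JUND in siKDM1A against siCTL, and 0.041 for IER2 in siCARM1 against siCHD4 and 0.012 in siGATAD2A against siKDM1A. With edgeR's filter over every biotype it was −0.00038 for ATF3 in siHDAC2 against siCTL and 0.0067 for FOSB in siCHD4 against siGATAD2A, and without regard to strand 0.0038 for FOSB in that pair and 0.0038 for FOSL1 in siCARM1 against siKDM1A. Leaving out each library gave these ranges against siCTL. JUNB ran from −0.30 to 0.19 in siCARM1 and −0.019 to 0.32 in siCHD4, JUND from −0.32 to 0.071 in siHDAC2 and −0.15 to 0.11 in siKDM1A, and ATF3 from −0.0071 to 0.055 in siHDAC2. For siCARM1 against siCHD4, JUN ran from −0.073 to 0.14 and JUNB from −0.45 to 0.043. For siCARM1 against siHDAC2, FOSL1 ran from −0.15 to 0.26 and JUND from −0.33 to 0.12. For siCARM1 against siGATAD2A IER2 ran from −0.021 to 0.16. For siCARM1 against siKDM1A, FOSL1 ran from −0.29 to 0.13, FOSL2 from −0.13 to 0.021, JUND from −0.40 to 0.011 and IER2 from −0.027 to 0.15. FOSB ran from −0.23 to 0.17 for siCHD4 against siGATAD2A and −0.38 to 0.022 for siCHD4 against siKDM1A. For siHDAC2 against siKDM1A, JUN ran from −0.019 to 0.13 and JUND from −0.29 to 0.094, and for siGATAD2A against siKDM1A IER2 from −0.072 to 0.063.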
